A study of Chlorocebus sabaeus with 10 samples.

Results

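Hepatocytes store surplus fatty acids as triglyceride in lipid droplets, and a set of coat proteins, lipases and their partners decides how readily a droplet is broken down, enlarged or merged. The transcripts of 10 such genes were followed here in livers of female vervet monkeys (Chlorocebus sabaeus, an Old World primate): the triglyceride lipase PNPLA2, its coactivator ABHD5, its inhibitor G0S2, the related hydrolase PNPLA3, the perilipins PLIN2, PLIN3 and PLIN5, the droplet fusion proteins CIDEB and CIDEC, and the droplet enzyme HSD17B13. The genes were chosen by symbol for their known roles, with earlier results of these data known. They account for 10 of the 28078 transcripts in the deposited table, since each symbol had 1 transcript.

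All 10 animals were females that had eaten chow before the study, and the paper describes them as age-matched. In its clinical measures the mean age was higher on HFr than on chow, with a wide spread in both groups and no significant difference. For 6 weeks 5 were fed a high fructose (HFr) diet and 5 stayed on chow, and each gave 1 liver biopsy and 1 RNA-Seq library, so that an animal is a replicate. The biopsies were bulk tissue, in which fewer cells of a type and less RNA per cell cannot be told apart. The question was whether 6 weeks of HFr were accompanied by different transcript levels of the proteins that coat and digest liver fat stores.

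In the fasting liver and in fat tissue, PNPLA2 (adipose triglyceride lipase, ATGL) takes the first fatty acid from triglyceride. ABHD5 activates it, G0S2 binds and inhibits it, and perilipins at the droplet surface control whether ATGL and ABHD5 meet. CIDE proteins transfer lipid between droplets that touch, and in the liver CIDEB also takes part in the loading of very low density lipoprotein with lipid. PNPLA3 and HSD17B13 are droplet proteins best known for their links to fatty liver disease.

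Library totals ran from 2977282 to 4992505 estimated counts, of which 34.7% to 73.6% fell on transcripts of the mitochondrial genome. The counts left for nuclear transcripts ranged from 1049970 to 2380744 on HFr and from 864571 to 2657103 on chow (two-sided exact permutation test, n = 5 per diet, p = 0.889). The mitochondrial share was 55.5% ± 11.8 (SD, n = 5) on HFr and 55.4% ± 16.5 (SD, n = 5) on chow (two-sided exact permutation test, p = 0.992). Of the hepatocyte markers, 9 were in the table and all 9 were tested, none with an unadjusted p under 0.05 from edgeR. Their summed level was 46751 to 72843 on HFr and 37917 to 76931 on chow. A level below is a normalized count, which is the estimated count divided by a library size scaled with the TMM (trimmed mean of M values) factor, expressed as CPM. Levels of different genes were not corrected for transcript length and are therefore not compared with each other.

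After a filter on low counts, 6 of the 10 genes could be tested (PNPLA2, PNPLA3, G0S2, PLIN2, CIDEB and HSD17B13), and ABHD5, PLIN3, PLIN5 and CIDEC fell below it. By the quasi-likelihood test of edgeR, 1 of the 6 differed between the diets at an unadjusted p under 0.05, PNPLA2, beside 4.29% of all 7948 tested transcripts (2.06% higher and 2.23% lower on HFr). No gene of the 6 passed after Benjamini-Hochberg adjustment with edgeR, and neither did any of the 7948 transcripts (0%); at the unadjusted threshold there were 341 such transcripts, and DESeq2 gave 2 with an adjusted p under 0.05. Of the 6 genes, 3 were higher and 3 lower on HFr, with a median log2 fold change of -0.03 beside -0.00069 over all tested transcripts.

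**Figure D1:**
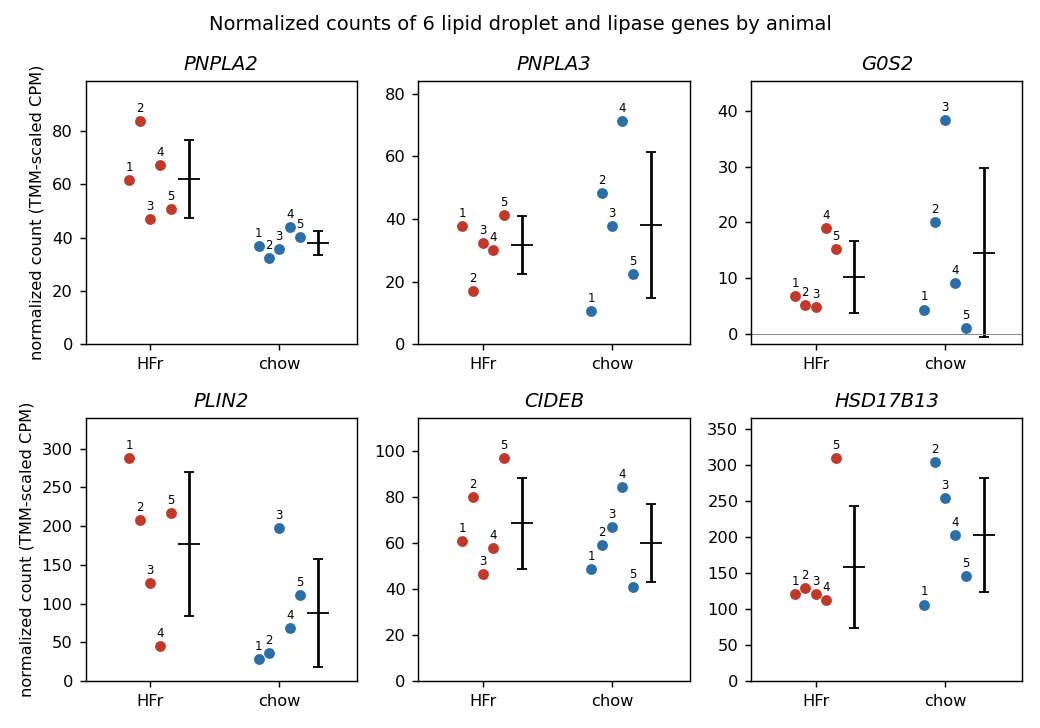
Normalized count (linear axis) of the 6 tested genes in each animal, with HFr in red and chow in blue and the replicate number above each point; the horizontal mark and bar are the mean and SD of 5 animals. PNPLA2 on HFr lies above every chow animal, while the other 5 genes overlap between the diets.

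PNPLA2 (ENSCSAG00000010547; ChlSab1.1 chr1:626019-632623, + strand) was the gene with the clearest separation. On HFr its normalized count was 61.8, 83.8, 46.9, 67.3 and 50.9 in replicates 1 to 5. On chow it was 37.0, 32.2, 35.9, 44.2 and 40.2. Every HFr animal was above every chow animal, although the lowest HFr value (replicate 3) and the highest chow value (replicate 4) lay close together. Such a separation was found in 1 of the 6 genes and in 0.541% of all tested transcripts (0.214% with HFr above). The log2 fold change was 0.72 (SE 0.18, edgeR p = 0.00159), the adjusted p was 0.994, and a two-sided exact permutation test on the 5 and 5 animals gave p = 0.00794, which is the smallest it can give. The unadjusted p was under 0.05 in each of 26 alternative analyses, in which the log2 fold change ran from 0.59 to 0.91 and the adjusted p from 0.243 to 0.999992. When libraries were scaled by their total alone, the log2 fold change was 0.80, still past the unadjusted threshold of 0.05, but the diets overlapped.

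Its inhibitor G0S2 (ENSCSAG00000015250; chr25:19778753-19779475, - strand) varied far more between animals than between diets. The level was 6.74, 5.12, 4.81, 19.0 and 15.1 on HFr. It was 4.31, 20.01, 38.4, 9.04 and 0.913 on chow. The highest and the lowest animal were both on chow, replicates 3 and 5, and the lower value rests on 2 estimated counts. The log2 fold change was -0.55 (SE 0.63, edgeR p = 0.395, exact permutation p = 0.611), and it was 0.21 without chow replicate 3. With limma on log2 values and a pseudocount of 0.1 it was 0.16, so that no direction could be given.

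ABHD5 (ENSCSAG00000016699; chr22:5109765-5137673, + strand), which perilipins hold at the droplet until lipolysis is stimulated, was near the limit of detection. It had 1, 1, 3, 1 and 1 estimated counts in the HFr libraries and 2 in each chow library. With 7 counts in all on HFr and 10 on chow, no diet difference was detectable at this depth (exact permutation p = 0.389; edgeR without the filter, p = 0.498). Whether the transcript models of ChlSab1.1 capture the reads of ABHD5 and PLIN3 was not tested, so their counts near 0 may not measure expression.

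PNPLA3 (ENSCSAG00000005504; chr19:26435599-26462210, + strand) is a close relative of PNPLA2 that holds on to the coactivator ABHD5 and in the liver is induced by feeding. Its level on HFr was 37.8, 16.9, 32.5, 30.01 and 41.3. On chow it was 10.7, 48.3, 37.9, 71.3 and 22.4. All 5 HFr animals fell inside the chow range, whose ends were chow replicates 1 and 4. The means were 31.7 ± 9.36 on HFr and 38.1 ± 23.5 on chow (SD, n = 5), and the log2 fold change of -0.26 (SE 0.39, edgeR p = 0.524, exact permutation p = 0.603) turned to 0.07 without chow replicate 4. Its neighbour PNPLA5 (chr19:26397163-26408126), another patatin-like lipase, had 0 counts in all 10 libraries.

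**Figure D2:**
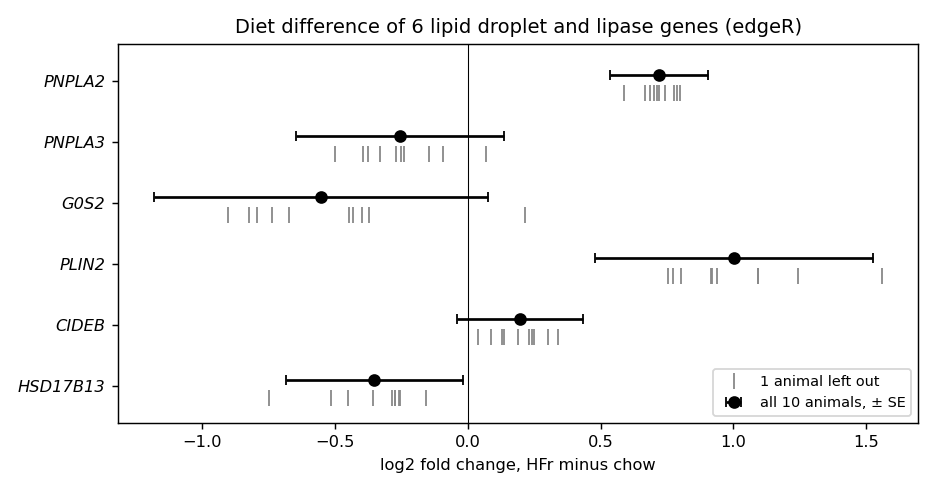
Log2 fold change between HFr and chow (x axis) of the 6 tested genes from edgeR, with the point and bar giving the estimate ± SE over 10 animals and the grey ticks the estimates with 1 animal left out. The ticks of PNPLA2 run from 0.59 to 0.80 and those of PLIN2 from 0.75 to 1.56, whereas those of PNPLA3 and G0S2 cross 0.

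PLIN2 (ENSCSAG00000009362; chr12:60590222-60610727, + strand) is the main perilipin of hepatocyte droplets, and its protein is degraded when it is not bound to a droplet. Its level was 288, 208, 127, 45.5 and 217 on HFr. It was 27.7, 36.1, 198, 67.8 and 111 on chow. On HFr replicates 1, 2 and 5 lay above every chow animal, but HFr replicate 4 was below 3 chow animals and chow replicate 3 was among the high values. The means were 177 ± 93.2 on HFr and 88.1 ± 69.7 on chow (SD, n = 5). The log2 fold change was 1.004 (SE 0.52, edgeR p = 0.0755, adjusted p = 0.9996), with 4 of 5 HFr animals above the chow mean (two-sided exact permutation test, p = 0.111). Single animals moved it across the threshold: it was 1.56 without chow replicate 3 and 1.24 without HFr replicate 4, both past the unadjusted threshold of 0.05 with edgeR.

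PLIN5 (ENSCSAG00000010517; chr6:4251751-4261126, - strand), the perilipin of oxidative tissues that ties droplets to mitochondria and binds both ATGL and ABHD5, was sparse. Its estimated counts were 6, 12, 1, 18 and 19 on HFr and 5, 5, 8, 2 and 2 on chow. As normalized counts these were 2.25, 2.67, 0.401, 3.97 and 3.73 on HFr and 1.13, 1.09, 1.46, 1.004 and 0.913 on chow. On HFr 4 of 5 animals were above every chow animal, and HFr replicate 3 was the lowest of all 10. Without the filter on low counts the log2 fold change was 1.22 (SE 0.50, edgeR p = 0.0220, adjusted p = 0.838, two-sided exact permutation p = 0.0476), in a fit where 4.71% of 16066 transcripts had an unadjusted p under 0.05. The difference rests on 56 counts on HFr and 22 on chow, and it no longer passed the unadjusted threshold of 0.05 without HFr replicate 4 (log2 fold change 1.02) or without HFr replicate 5 (1.06).

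PLIN3 (ENSCSAG00000010458; chr6:4539269-4559987, - strand) encodes a perilipin that moves from the cytosol onto new droplets. It had 4 estimated counts in HFr replicate 4, 1 in chow replicate 2 and 0 in the other 8 libraries. A floor of 3 counts corresponds to 0.546 to 1.51 normalized counts across the libraries, so PLIN3 was listed near or at 0 on both diets and no fold change is given. These floors cover counting error only.

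**Figure D3:**
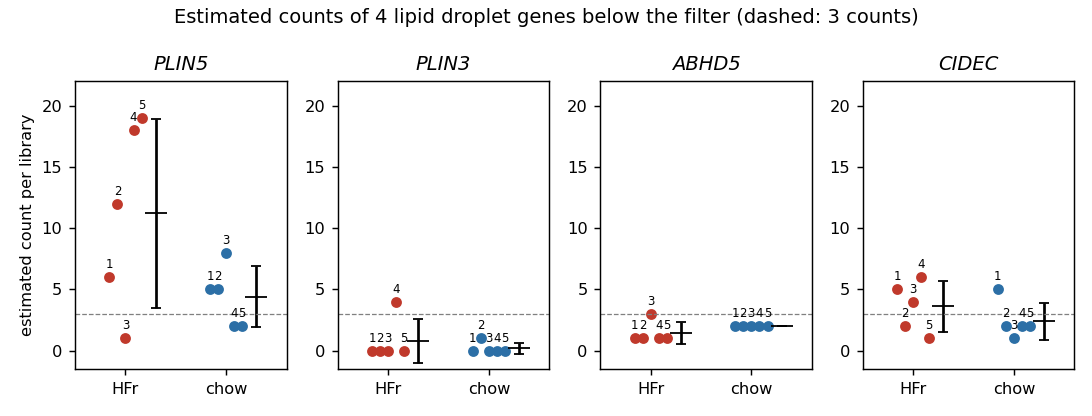
Estimated counts (linear axis) of the 4 genes below the filter in each animal, with HFr in red, chow in blue, replicate numbers above the points and the mean and SD of 5 animals as mark and bar; the dashed line is the floor of 3 counts. PLIN5 reaches 12 to 19 counts in 3 HFr animals, while PLIN3 and ABHD5 stay at 4 counts or fewer in all 10.

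CIDEB (ENSCSAG00000015905; chr24:1287932-1291573, - strand), the CIDE protein normally made by hepatocytes, was the steadiest of the 6 tested genes. It was 61.0, 79.99, 46.5, 58.0 and 97.1 on HFr and 48.8, 59.0, 67.0, 84.3 and 41.1 on chow. The diets overlapped over nearly the whole range, with a log2 fold change of 0.20 (SE 0.24, edgeR p = 0.419, exact permutation p = 0.492). With 1 animal left out it ran from 0.04 (without HFr replicate 5) to 0.34 (without chow replicate 4). The end of NOP9 (chr24:1282873-1288148), on the opposite strand and with 7 to 38 counts, overlaps CIDEB; the libraries were stranded, but whether the counting used strand is not given in the sources used here.

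CIDEC (ENSCSAG00000010468; chr22:45895249-45910658, - strand), which builds the large single droplet of white fat cells and is induced in fatty liver of mice, had 5, 2, 4, 6 and 1 estimated counts on HFr. On chow it had 5, 2, 1, 2 and 2. The sums of 18 and 12 counts did not separate the diets (exact permutation p = 0.341; edgeR without the filter, p = 0.435), and a difference was not detectable at this depth.

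HSD17B13 (ENSCSAG00000004328; chr7:35682130-35702216, - strand), a droplet-bound retinol and steroid dehydrogenase of hepatocytes, split the HFr animals. Its level was 121, 129, 121 and 113 in HFr replicates 1 to 4 and 310.1 in HFr replicate 5. On chow it was 106, 304, 254, 202 and 147. The first 4 HFr animals lay within a narrow band below 4 of 5 chow animals, and HFr replicate 5 was the highest of all 10. With every animal the log2 fold change was -0.35 (SE 0.33, edgeR p = 0.309, exact permutation p = 0.381). Without HFr replicate 5 it was -0.75 and past the unadjusted threshold of 0.05, and without chow replicate 2 it was -0.16 and not past it.

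The spread of each gene over the 10 animals was set beside that of all tested transcripts, whose median coefficient of variation was 27.1%. CIDEB (27.9%) and PNPLA2 (32.7%) were near that median. HSD17B13 reached 44.8% and PNPLA3 49.2%, above 86.1% and 90.1% of tested transcripts. PLIN2 reached 68.4% and G0S2 91.0%, above 97.1% and 99.2% of them. From the lowest to the highest animal PLIN2 differed 10.4-fold and PNPLA3 6.68-fold, beside a median of 2.39-fold over all tested transcripts.

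Ratios within 1 library do not depend on the scaling between libraries and were taken as log2 of estimated counts (pseudocount 0.5), as a description. The ratio of PNPLA2 to its inhibitor G0S2 was 8.95, 16.02, 9.40, 3.53 and 3.35 on HFr on a linear scale. On chow it was 8.38, 1.61, 0.934, 4.78 and 35.4. The lowest and the highest ratio both came from chow animals, and the mean log2 ratio was 2.79 ± 0.98 on HFr and 2.21 ± 2.06 on chow (SD, n = 5). The difference of 0.58 was 0.003 without chow replicate 3 and 1.31 without chow replicate 5, so that it turned on single animals.

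The ratio of PNPLA2 to PNPLA3 was 1.63, 4.92, 1.44, 2.24 and 1.23 on HFr. On chow it was 3.44, 0.667, 0.947, 0.621 and 1.79, with 3 of 5 chow animals below every HFr animal. Without transcript lengths such a ratio can be compared between animals but says nothing of which gene had more transcripts. The mean log2 ratio was 0.999 ± 0.79 on HFr and 0.25 ± 1.05 on chow (SD, n = 5), and the diets overlapped. Leaving out single animals moved the difference of 0.74 between 0.42 (without HFr replicate 2) and 1.13 (without chow replicate 1). The 4 other ratios contained a sparse gene, and for PLIN3 rest on the pseudocount in 8 libraries. Their differences (HFr minus chow, log2) were 1.28 for PNPLA2 to ABHD5, 0.91 for PLIN2 to PLIN3, -0.27 for PLIN5 to PLIN2 and 0.16 for CIDEC to CIDEB, and the diets overlapped in each.

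**Figure D4:**
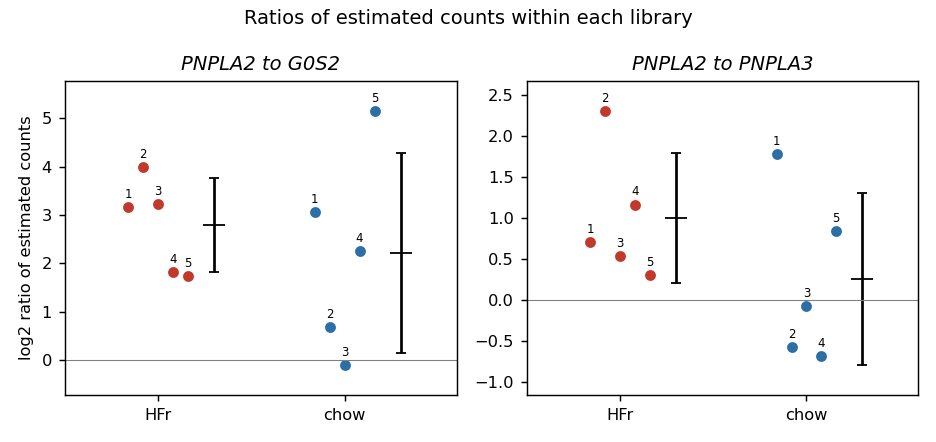
Log2 ratio of estimated counts within each library for PNPLA2 to G0S2 and PNPLA2 to PNPLA3, with HFr in red, chow in blue, replicate numbers above the points and the mean and SD of 5 animals as mark and bar; the grey line is drawn at 0 and, without transcript lengths, does not mark equal levels. The chow animals span the wider range for PNPLA2 to G0S2, and 3 of 5 chow animals lie below every HFr animal for PNPLA2 to PNPLA3.

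How the 6 tested genes varied together was examined over all 10 animals (Pearson r and Spearman rho of log2(normalized count + 1), 100000 permutations). Of 15 pairs none passed after Benjamini-Hochberg adjustment, with r from -0.47 to 0.63. The strongest positive pair was PNPLA3 with HSD17B13 (r = 0.63, permutation p = 0.0495, adjusted p = 0.388; rho = 0.72, permutation p = 0.0238, adjusted p = 0.309). Its r was 0.51 without the 2 animals farthest from the median of PNPLA3 and 0.65 after each diet's mean was subtracted. With counts per nuclear total as the scale it was 0.51 (permutation p = 0.135), and the strongest pair was instead the inverse one of PNPLA2 with HSD17B13 (r = -0.64, permutation p = 0.0456, adjusted p = 0.618; rho = -0.73, permutation p = 0.0198, adjusted p = 0.297). With the mitochondrial percent, none of the 6 genes was related after adjustment, and the largest value was HSD17B13 (r = -0.56, permutation p = 0.0990, adjusted p = 0.309; rho = -0.32, permutation p = 0.369, adjusted p = 0.742). Without the 2 animals farthest from the median mitochondrial percent that r was -0.57.

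The transcripts most like each gene over the 10 animals were found by Pearson r and are given as a description. Each r is among the 2 highest over all tested transcripts with a gene symbol. Such a search over 10 animals yields high values by selection alone, so their size is no measure of a relation. PLIN2 varied most closely with LIPA, the lysosomal acid lipase that hydrolyses triglyceride and cholesteryl ester (r = 0.93, and 0.92 within diets), and with NRP1 (0.90 and 0.89). The animals with low LIPA, chow replicates 1 and 2 and HFr replicate 4, were also the 3 with the lowest PLIN2. G0S2 varied closely with SOS1 (0.93 and 0.93 within diets), and HSD17B13 was most like MGST1 (0.95 and 0.94) and FN1 (0.93 and 0.94). PNPLA3 was closest to C3 (0.92 and 0.94) and PEPD (0.92 and 0.94), CIDEB to RPLP0 (0.92 and 0.92) and LGALS8 (0.91 and 0.91), and PNPLA2 to CCM2 (0.88 and 0.84).

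Transcription factors known to act on these genes were described next. Of 10 listed, 8 were tested, 5 higher and 3 lower on HFr, and 1 had an unadjusted p under 0.05, beside 4.29% of all tested transcripts. This was ESRRA, the orphan receptor ERRα that drives genes of mitochondrial oxidation. Its level was 34.8, 45.0, 32.9, 42.4 and 38.9 on HFr and 29.1, 27.4, 31.9, 29.1 and 21.9 on chow, with every HFr animal above every chow animal, as in 0.214% of all tested transcripts (log2 fold change 0.47, SE 0.16, edgeR p = 0.0103, adjusted p = 0.9996, exact permutation p = 0.00794). Scaled by library totals alone it was 0.48 and no longer past the unadjusted threshold. The lipogenic regulators SREBF1 (log2 fold change -0.09, SE 0.52, exact permutation p = 0.897) and MLXIPL (0.05, SE 0.36, p = 0.929), which encodes the carbohydrate sensor ChREBP, had wide errors. PPARG, the fat cell receptor that induces CIDEC and PLIN genes, gave -0.41 (SE 0.38, exact permutation p = 0.365). PPARA, the fasting receptor of hepatocytes, fell below the filter at 0.454 to 4.12 normalized counts.

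After these values were seen, the 6 genes were correlated with the 8 tested regulators, 48 relations in all. Of the Pearson correlations 9 had an unadjusted permutation p under 0.05 and none passed adjustment, and of the Spearman correlations 1 passed, which with counts per nuclear total as the scale did not (adjusted permutation p = 0.0967). That was the inverse relation of HSD17B13 with NR1H3, the oxysterol receptor LXRα (r = -0.83, permutation p = 0.0030, adjusted p = 0.0713; rho = -0.94, permutation p = 0.0002, adjusted p = 0.0110). It was -0.82 without the 2 animals farthest from the median of NR1H3 and -0.81 within diets, over NR1H3 levels of 6.92 to 15.0. G0S2 varied with SREBF1 (r = 0.84, permutation p = 0.0022, adjusted p = 0.0713; rho = 0.84, permutation p = 0.0037, adjusted p = 0.0592), with 0.81 without the 2 farthest animals and 0.84 within diets. PNPLA2 varied with ESRRA (r = 0.81, permutation p = 0.0047, adjusted p = 0.0749; rho = 0.87, permutation p = 0.0024, adjusted p = 0.0576). For this pair r was 0.85 without the 2 farthest animals but 0.43 within diets, and the diets separate both genes. With counts per nuclear total as the scale r was 0.84 (permutation p = 0.0028, adjusted p = 0.0686) and 0.64 within diets.

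**Figure D5:**
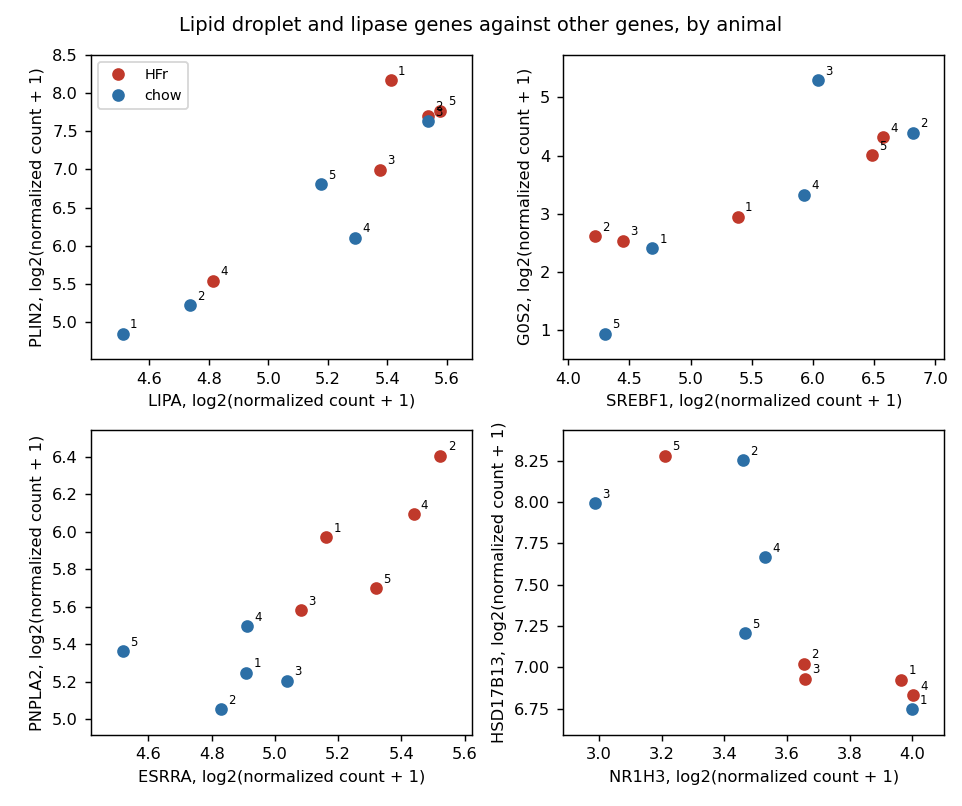
Log2(normalized count + 1) of PLIN2 against LIPA, G0S2 against SREBF1, PNPLA2 against ESRRA and HSD17B13 against NR1H3, 1 point per animal with its replicate number, HFr in red and chow in blue. The first 2 panels mix the diets along the trend (r = 0.93 and 0.84), the PNPLA2 panel has the diets apart, and the HSD17B13 panel runs downwards (r = -0.83). LIPA is shown because it had the highest r with PLIN2 of all tested transcripts with a gene symbol.

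Of 17 further proteins of droplets and of droplet formation, 13 were tested, 5 higher and 8 lower on HFr, with a median log2 fold change of -0.09. Of these, 1 had an unadjusted p under 0.05, beside 4.29% of all tested transcripts: ACSL3, an acyl-CoA synthetase that marks nascent droplets. Its level was 17.2, 16.9, 17.6, 19.4 and 25.5 on HFr and 21.1, 28.1, 34.1, 23.6 and 21.9 on chow (log2 fold change -0.41, SE 0.19, edgeR p = 0.0447, adjusted p = 0.9996, exact permutation p = 0.0556). Each of the 5 HFr animals lay below the chow mean, and in 15 of 26 alternatives its unadjusted p was 0.05 or more. HSD17B11, the neighbour and close relative of HSD17B13 (chr7:35714925-35777229), was likewise below the chow mean in all 5 HFr animals, at 110.5 ± 21.7 on HFr and 143 ± 32.3 on chow (SD, n = 5; log2 fold change -0.37, SE 0.20, exact permutation p = 0.111).

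PLIN1, the perilipin that guards the droplet of fat cells, ranged from 109.9 to 179 on HFr and from 41.8 to 249 on chow, where chow replicates 4 and 5 held the highest values of all 10 (log2 fold change 0.15, SE 0.43, exact permutation p = 0.810). The next highest was HFr replicate 3. These were the 3 libraries with over 65% mitochondrial counts (73.6%, 68.7% and 67.8%). A relation of PLIN1 to the mitochondrial share was not tested. PLIN4 (chr6:4229480-4246905), which lies beside PLIN5, was 53.6 ± 32.9 on HFr and 40.5 ± 15.5 on chow (SD, n = 5; 0.40, SE 0.36, exact permutation p = 0.476). The droplet assembly genes BSCL2, which encodes seipin (-0.09, SE 0.32, exact permutation p = 0.810), and FITM2 (0.00, SE 0.20, p = 0.968) were close to 0 on the log2 scale. CIDEA, a CIDE protein of brown fat cells that appears in fatty mouse liver, was mostly near the floor but reached 8.06 in HFr replicate 5 and 13.7 in chow replicate 2. HILPDA, a small inhibitor of ATGL, had 0 to 2 estimated counts in every library.

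Of 17 other lipases and related hydrolases, 14 were in the table and 9 tested, 6 higher and 3 lower on HFr, with a median log2 fold change of 0.17. CES1, CES2 and ABHD12 were not analysed here. The 1 with an unadjusted p under 0.05, beside 4.29% of all tested transcripts, was LIPC, hepatic lipase, which is secreted and acts on lipoproteins and not on droplets. It was 35.2, 53.2, 43.3, 60.2 and 69.0 on HFr and 26.3, 37.4, 46.6, 46.2 and 24.6 on chow (log2 fold change 0.53, SE 0.23, edgeR p = 0.0390, adjusted p = 0.9996, exact permutation p = 0.0794). On HFr 3 animals lay above every chow animal, and in 10 of 26 alternatives its unadjusted p was 0.05 or more. MGLL, which splits the last fatty acid from monoglyceride, was 59.7 ± 14.1 on HFr and 45.2 ± 14.0 on chow (SD, n = 5; 0.39, SE 0.22, exact permutation p = 0.143). LIPA gave 0.28 (SE 0.22, exact permutation p = 0.206). LIPE, the hormone-sensitive lipase that acts after ATGL, fell below the filter at 2.93 ± 1.74 on HFr and 1.601 ± 0.930 on chow (SD, n = 5), and PNPLA1, a skin lipase, had 0 counts in all libraries.

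Markers of other cells were set beside these values. The fat cell genes ADIPOQ, LEP and ADRB3 had 0 counts in all 10 libraries, although PLIN1 and PLIN4 were well above the filter. FABP4 and LPL of the same list also passed it. FABP4 was 6.28 ± 3.19 on HFr and 7.28 ± 3.57 on chow (SD, n = 5). LPL was 2.93 ± 1.83 on HFr and 4.39 ± 2.12 on chow (SD, n = 5). None of the 4 tested of the 9 fat cell markers in the table had an unadjusted p under 0.05. The sum of the 9, which includes the droplet genes PLIN1 and PLIN4, was 147 to 249 on HFr and 104 to 289 on chow (two-sided exact permutation test, p = 0.619). Of 9 skeletal muscle markers none passed the filter, CKM, MB, MYH2 and MYH7 had 0 counts in every library, and the sum was 1.497 to 5.21 on HFr and 1.09 to 4.99 on chow (p = 0.357 by the same exact test). Of 7 tested stellate cell and fibroblast markers 1 was higher and 6 were lower on HFr, and LRAT was at 0. Of the 7, 2 had an unadjusted edgeR p under 0.05, beside 4.29% of all tested transcripts. These were ACTA2 (log2 fold change -1.57, exact permutation p = 0.0397) and TAGLN (-0.69, exact permutation p = 0.0238), both lower on HFr. The sum over all 10 markers of this list, tested or not, was 232 to 414 on HFr and 189 to 841 on chow (exact permutation p = 0.437). Of 9 tested endothelial markers 6 were higher and 3 lower on HFr. Of the 9, 1 had an unadjusted edgeR p under 0.05, beside 4.29% of all tested transcripts. This was KDR, higher on HFr (log2 fold change 0.57, exact permutation p = 0.0317). The 10 endothelial markers in the table summed to 361 to 467 on HFr and 275 to 461 on chow (exact permutation p = 0.778). None of 8 tested macrophage, 2 tested cholangiocyte or 5 tested lymphocyte and blood markers had an unadjusted edgeR p under 0.05. The 9 macrophage markers in the table summed to 55.5 to 216 on HFr and 60.9 to 237 on chow (exact permutation p = 0.754). For the 6 cholangiocyte markers in the table the sum was 5.96 to 28.5 on HFr and 10.04 to 32.7 on chow (exact permutation p = 0.349). For the 9 lymphocyte and blood markers it was 141 to 383 on HFr and 97.2 to 381 on chow (exact permutation p = 0.389). Most of that last sum was HBB, at 99.8 to 329 on HFr and 59.2 to 336 on chow. In the fit without the filter, to which the PLIN5 value belongs, 4.71% of 16066 transcripts had an unadjusted edgeR p under 0.05. KRT19 of cholangiocytes (log2 fold change -1.58, exact permutation p = 0.214) and FCN3 of endothelium (1.43, exact permutation p = 0.0238) were among them. GZMA of lymphocytes, with 26 counts on HFr and 12 on chow, was above every chow animal in all 5 HFr animals. Its unadjusted edgeR p in that fit was 0.0894, and the exact permutation p of 0.00794 follows from the separation itself. Among the 7948 filtered transcripts 0.214% had HFr above chow in this way, and the share was not counted without the filter. The part of these cells in the PNPLA2 and PLIN5 values was not tested.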

How the data were processed

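Polyadenylated liver RNA (TruSeq stranded mRNA) was sequenced as 100 base paired-end reads. Reads of Phred 30 or more were aligned to ChlSab1.1, and the authors deposited estimated counts per Ensembl release 93 transcript. These came from expectation-maximization in Partek Flow, which the paper describes as normalizing by transcript length. The submitters' processing notes name CASAVA 1.8, FastQC, STAR 2.5.3a and Partek. Of the values 97.7% were whole, and they were treated as counts not divided by length. The authors also deposited a normalized signal, the same values after removal of transcripts without reads and TMM scaling, which held 16105 transcripts and was used only for the limma and equal-variance alternatives and a count of genes without overlap.

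After rounding, low estimated counts were removed by filterByExpr at its defaults (minimum count 10, minimum total 15). The minimum count is not required in every library, and G0S2 was tested with 2 counts in chow replicate 5. All 7948 remaining transcripts were fitted with edgeR's quasi-likelihood test (diet only, TMM, factors 0.608 to 1.48), and p-values were adjusted by Benjamini-Hochberg over all of them. The SE is the log2 fold change divided by the square root of F. Single values were compared by two-sided exact permutation over the 252 assignments of animals. Analyses used edgeR 4.0.16, DESeq2 1.42.0 and limma 3.58.1 in R 4.3.3, with scipy 1.17.1 in Python 3.11.15. The procedure was tested on simulated data.

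Named were the 10 genes, list genes with an unadjusted p under 0.05, 13 list genes whatever their value, and the 2 transcripts most correlated with each tested gene, of which 2 are not reported here; HSD17B11, NR1H3, PNPLA1 and PNPLA5 and the cell type markers named were added after their values were seen. The genes and lists (further droplet proteins, other lipases, regulators and the cell type markers) were chosen with earlier results of these data known. Alternatives covered the test, scaling, filter, pseudocount, weights, a replicate block, the mitochondrial percent and each animal left out. Gene spans count from 1 on ChlSab1.1. No sequences are shown. Protein, metabolite and small RNA data were not analysed here.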

Additional observations from a re-analysis of the deposited data

Results flagged for a closer look

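Within each diet, the highest or the lowest animal was compared with its nearest neighbour over the diet's whole range (Dixon's criterion for 5 samples, 0.71). Of 44 gene and diet groups checked, 5 had an animal standing apart, where chance gives about 1 in 20 for normally distributed values. The values were linear normalized counts, so that rate is only a rough guide. The sparse genes ABHD5 on HFr and PLIN3 on both diets would also meet the criterion but are not among the 5.

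HSD17B13 was 310.1 in HFr replicate 5, against 113 to 129 in the other HFr animals, from 1578 estimated counts. In the same animal CIDEA was 8.06 against 0 to 1.12 in the others (41 estimated counts) and ACSL3 was 25.5 against 16.9 to 19.4. LIPE was 5.96 in HFr replicate 4, from 27 estimated counts, against 1.497 to 2.55. BSCL2 was 15.2 in chow replicate 1 against 9.79 to 10.7 in the other chow animals.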

How the results depend on the processing

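Of the 6 tested genes, PNPLA2 had an unadjusted p under 0.05 in all 26 alternatives run, and PLIN2 in 5 of 26. The number of the 6 genes past that threshold was 1; it was 2 with library totals alone, 3 of the 10 genes without the filter, 2 with voom sample weights, and 1 to 2 with an animal left out. The transcripts past it numbered 341, against 124 with library totals alone, 756 without the filter and 255 to 396 with an animal left out. Those with an adjusted p under 0.05 numbered 0, against 2 with DESeq2, 1 with library totals alone and 0 with any animal left out of the filtered fit; without the filter there were 2 without chow replicate 2, 5 without chow replicate 3 and 0 without each of the others. The number of the 6 genes with no overlap between diets was 1, and 0 with library totals alone. The log2 fold change of PNPLA3 ran from -0.50 to 0.069 (without chow replicate 4) and that of G0S2 from -0.90 to 0.21 (without chow replicate 3) with an animal left out, and G0S2 was 0.16 with limma at pseudocount 0.1; the cause was not tested. Without the 3 libraries with over 65% mitochondrial counts, a comparison added after the values were seen, PNPLA2 was 0.91 and past the unadjusted threshold, and PLIN2 was 1.11 and not.

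Calls at an unadjusted p under 0.05 split into 164 higher and 177 lower on HFr, against 230 and 112 (limma, pseudocount 1), 226 and 112 (pseudocount 0.1) and 214 and 114 (equal-variance comparison). Leaving out an animal moved the difference in mitochondrial percent (HFr minus chow) between -5.10 and 4.61 and that in nuclear counts between -133720 and 314413.

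Replicate numbers gave no pairing: the correlation of same-numbered animals' deviations was -0.29 to 0.10. With the replicate block 271 transcripts had an unadjusted p under 0.05, and PNPLA2 was 0.69 and among them. With 2977282 to 4992505 counts per library, ABHD5, PLIN3 and CIDEC had at most 6 counts per library.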
